A study of Mus musculus with 4 samples.

Results

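Branched-chain amino acid breakdown was followed through 9 genes of the 37310 in a count table made by RNA-seq. They are the 4 genes whose proteins build the branched-chain alpha-keto acid dehydrogenase complex (*Bckdha*, *Bckdhb*, *Dbt*, *Dld*), the kinase and phosphatase that regulate it (*Bckdk*, *Ppm1k*), the transaminases before it (*Bcat1*, *Bcat2*) and *Ivd*, which follows it in leucine breakdown. The genes were listed by role, around *Bckdhb*, which was chosen by its normalized counts and log2 fold change, nearly lost in one group of these same libraries. The values of all 9 in that contrast are therefore a description, and no p-value is given for them. All 9 had enough counts to enter the fit.

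The HATX line of mouse embryonic stem cells (mESCs) was compared with its *Spen* knockout (KO), of which clone 2 was sequenced, and each group has 2 libraries. Spen is an RNA-binding repressor that *Xist* needs to silence the X chromosome, and the comparison asks which genes depend on it. Both groups carry an *Xist* transgene on the X chromosome that doxycycline can switch on, the labels state no treatment, and the background is labelled as mixed. The cells were grown with serum and LIF on gelatin, the study calls them haploid, and it describes the deletion as full in one place and as most of *Spen* in another. Each group is 1 cell line, so that any other difference between the clone and the WT line is part of every value below and cannot be told apart from the loss of *Spen*. Nothing says that the 2 libraries of a line came from separate cultures, so p-values measure only the spread between these libraries.

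Library totals ran from 36667685 to 61908422 counts, and the WT libraries were the shallower ones. *Spen* itself had 3716 and 3047 normalized counts in WT and 7797 and 6242 in the libraries labelled KO, which is 1.05 ± 0.21 (SE) on the log2 scale (DESeq2 adjusted p = 7.7e-06). Gene-level counts do not show where in *Spen* the reads lie, so a higher count neither checks the deletion nor goes against it. The group is called KO-labelled, and every direction rests on that label. All 10 listed stem cell markers were detected in every library, with summed normalized counts of 247489 to 251954 in WT and 253559 to 265335 in the KO-labelled libraries. Of these 10, 2 were higher (*Zfp42* by 0.23 and *Dppa5a* by 0.28 on the log2 scale) and 1 lower (*Fgf4*, -0.21) at a DESeq2 adjusted p under 0.05. Over all genes tested 16.4% were higher and 15.8% lower at that threshold, which is also the one used for the marker calls below. Summed listed markers of other cells differed between the groups. Fibroblast markers summed to 172 and 192 in WT against 421 and 485, with *Thy1* the 1 of 7 that was higher at an adjusted p under 0.05. *Thy1* alone had 118 and 137 against 356 and 414, most of each sum. *Col1a1* had 27.8 and 21.8 against 49.6 and 47.7 and was not called by DESeq2 (adjusted p = 0.188; edgeR 0.040), while *Col1a2* (13.3 and 13.1 against 5.22 and 6.26) and *Col3a1* (10.6 and 10.9 against 8.71 and 9.39) had lower values in the KO-labelled libraries, and 3 (*Dcn*, *Lum*, *Postn*) had no count in at least 1 library. Primitive endoderm markers summed to 493 and 553 against 273 and 222, with 2 of 6 lower (*Gata4* and *Sox7*, with log2 fold changes of -1.13 and -1.45), and *Foxa2* was at 0 in 1 KO-labelled library. Trophoblast markers summed to 4304 and 4460 against 3628 and 3824, and *Elf5* was at 0 in both KO-labelled libraries. Most of that last sum is *Tcfap2c*, at 3534 to 4067, which was not called (-0.13, DESeq2 adjusted p = 0.250). The 3 of 6 that were lower had mean normalized counts of 259 in WT against 39.1 (*Gata3*), 62.8 against 17.4 (*Cdx2*) and 60.7 against 20.7 (*Krt7*). The part of these markers in the results below was not tested, and in bulk RNA fewer cells of a type and less RNA per cell cannot be told apart.

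Leucine, isoleucine and valine are first stripped of their amino group by a transaminase, Bcat1 in the cytosol or Bcat2 in mitochondria. The resulting keto acids then meet the mitochondrial dehydrogenase complex, which removes a carboxyl group and commits them to breakdown. Bckdha and Bckdhb are the alpha and beta chains of its decarboxylase, Dbt is the lipoate-bearing core that passes the acyl group to coenzyme A, and Dld is the flavoprotein that resets the lipoate. Dld is shared with the pyruvate and 2-oxoglutarate dehydrogenase complexes. Bckdk phosphorylates Bckdha and turns the complex off, and Ppm1k removes the phosphate. Inherited loss of either decarboxylase chain causes maple syrup urine disease.

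Both chains of the decarboxylase must be made for it to work, so the sequences just before their annotated starts are shown for the gene that is nearly lost and for its partner. Each is the 250 bases before the first base of the GENCODE gene (build NCBIM37, equal to mm9), written 5′ to 3′ on the strand of the gene, with every CG in capitals. *Bckdhb* lies on the plus strand and its window is chr9:83818507-83818756. *Bckdha* lies on the minus strand and its window is chr7:26443781-26444030.
Bckdhb: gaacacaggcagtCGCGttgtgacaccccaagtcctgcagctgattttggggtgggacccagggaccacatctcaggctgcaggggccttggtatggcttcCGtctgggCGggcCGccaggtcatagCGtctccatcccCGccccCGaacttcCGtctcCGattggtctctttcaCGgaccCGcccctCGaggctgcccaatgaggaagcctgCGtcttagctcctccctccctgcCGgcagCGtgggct
Bckdha: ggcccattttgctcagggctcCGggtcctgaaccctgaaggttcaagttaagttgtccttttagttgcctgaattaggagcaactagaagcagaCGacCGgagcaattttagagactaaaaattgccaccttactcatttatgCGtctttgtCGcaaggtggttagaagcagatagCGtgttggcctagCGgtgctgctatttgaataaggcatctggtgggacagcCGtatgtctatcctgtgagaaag

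The *Bckdhb* window holds 16 CG and is 64.8% G or C, the most of the 9 genes on both counts. Over the 22375 such windows of protein-coding genes the median is 8 CG, 92.5% hold at least 1, and 69.5% hold fewer than *Bckdhb*. *Bckdha* has 8 CG at 47.6% G or C. The other 7 genes have 5 (*Bcat1*) to 15 (*Dld*). These are features of the reference sequence, and neither methylation nor binding was measured in this table.

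*Bckdhb* (ENSMUSG00000032263.7) spans bases 83818757 to 84017846 of chromosome 9, with 12 exonic blocks of 1487 bases in all and 3 annotated transcripts. Its raw counts reached 1634 and 1839 in WT but only 18 and 10 in KO-labelled cells. Normalized, these are 2166 and 2003 against 15.7 and 7.83, so the groups lay far apart. The means were 2084 ± 116 and 11.7 ± 5.55 (SD, n = 2), which put the KO-labelled level at 0.564% of WT. The log2 fold change was -7.49 ± 0.30 (SE), and leaving out single libraries gave -8.05 to -7.05. Scaled by the library total alone, the gene had 44.6 and 42.0 CPM in WT against 0.329 and 0.162 CPM.

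The remaining reads are few, and fewer fragments may lie behind them. Among genes with 1 to 20 counts in a library, 64.0% to 66.5% had an even count, and 1562 to 1705 genes had exactly 2 counts where 689 to 754 had 1, against 49.5% to 51.5% even among genes with 1000 counts or more. Whether both reads of a pair were counted was not tested. If they were, 18 and 10 counts stand for fewer fragments than reads. None of the exonic bases of *Bckdhb* had a near-identical copy elsewhere (at least 95% identity over at least 75 bases), and the 1 gene that overlaps it, a *U6* small nuclear RNA inside it on the other strand, had no count and shares no exonic base. Gene-level counts do not resolve which exons the remaining reads came from.

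Among the 11965 genes with a WT mean of at least 100 normalized counts, *Bckdhb* had the third lowest log2 fold change, after *Dynlt1b* and *Olig1*. The 5 genes closest to it by the absolute difference in log2 fold change, over the same 4 libraries, were *Peg3* (0.089), *Olig1* (0.089), *H19* (0.30), *Olig2* (0.82) and *Peg10* (1.01). *Peg3*, an imprinted zinc finger gene, had 2258 and 2492 normalized counts in WT and 13.9 and 14.1 in the KO-labelled libraries, both between the KO-labelled values of *Bckdhb*. *Olig2*, a neural transcription factor gene, had 2186 and 2528 against 19.2 and 26.6, both above the KO-labelled values of *Bckdhb*. *Peg10*, an imprinted gene derived from a retrotransposon, had 1811 and 2168 against 22.6 and 21.9. None of these 5 encodes an enzyme of amino acid breakdown.

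**Figure D1:**
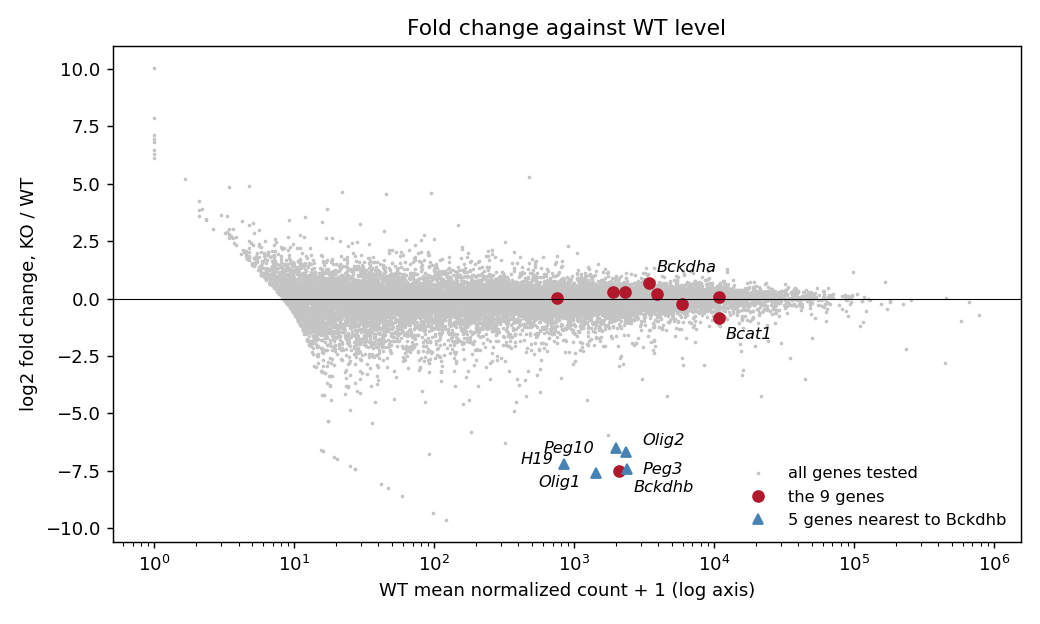
Each point is a gene. The x axis is the WT mean normalized count plus 1 on a log axis, and the y axis is the log2 fold change of KO-labelled over WT libraries. Circles are the 9 branched-chain genes and triangles the 5 genes nearest to *Bckdhb*, which sits at -7.49 while the other 8 lie between -0.83 and 0.67.

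The partner chain, *Bckdha* (ENSMUSG00000060376.6; chromosome 7, 26414871 to 26443780), moved the other way. It had 3488 and 3402 normalized counts in WT and 5338 and 5648 in the KO-labelled libraries. Both KO-labelled values were above both WT values, with a log2 fold change of 0.67 ± 0.08 (SE), or 1.59-fold. *Bckdha* and *Bckdhb* sit on different chromosomes, and no exonic base of *Bckdha* has a near-identical copy or an overlapping gene.

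The core gene *Dbt* (chromosome 3) had 1909 and 1885 normalized counts in WT and 2353 and 2277 in the KO-labelled libraries. It was higher there by 0.29 ± 0.09 (SE) on the log2 scale, and the groups did not overlap. *Dld* (chromosome 12), the flavoprotein shared among complexes, had 5916 and 5823 against 4994 and 4957, a log2 fold change of -0.24 ± 0.07 (SE). Genes of chromosome 12 as a whole had a median log2 fold change of -0.32 over 466 genes, and relative to that median *Dld* stood at 0.08, so its direction depends on the reference. The chromosomes of the other 8 genes had medians between 0.06 and 0.13.

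The regulators showed small differences at most. *Bckdk*, the kinase that switches the complex off, had 3922 and 3902 normalized counts in WT and 4336 and 4564 in the KO-labelled libraries, a log2 fold change of 0.19 ± 0.08 (SE). *Ppm1k*, the opposing phosphatase, had 781 and 726 against 724 and 785, with overlapping groups and a log2 fold change of 0.00 ± 0.14 (SE). Per kilobase of exon the kinase stood at 9.12 and 9.75 times the phosphatase in WT and at 10.9 and 10.6 times in the KO-labelled libraries. These are RNA levels, and phosphorylation of the complex was not measured.

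The cytosolic transaminase *Bcat1* (chromosome 6, 144942355 to 145024704) was the second most changed of the 9. It had 10667 and 10863 normalized counts in WT and 6146 and 5936 in the KO-labelled libraries, with no overlap. The log2 fold change was -0.83 ± 0.07 (SE), so that the KO-labelled mean was 56.1% of WT. *Bcat2*, the mitochondrial form, had 11065 and 10587 against 11453 and 11386, a log2 fold change of 0.08 ± 0.07 (SE). Relative to the median of chromosome 7 it was -0.02, so no direction holds for it. The ratio of *Bcat1* to *Bcat2* per kilobase thus went from 0.403 and 0.429 in WT to 0.224 and 0.218 in the KO-labelled libraries. Other genes share 3.62% of the exonic bases of *Bcat1* and 16.0% of those of *Bcat2* on the other strand, and the strand setting of the counting is not given in the sources used here, so that reads there could belong to either gene.

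*Ivd*, which acts on the leucine-derived product of the complex, had 2335 and 2279 normalized counts in WT and 2801 and 2875 in the KO-labelled libraries. Its log2 fold change was 0.30 ± 0.09 (SE) and the groups did not overlap. Near-identical copies covered 2.80% to 7.72% of the exonic bases of *Bcat2*, *Ivd*, *Dbt*, *Bckdk* and *Ppm1k*, and none of the other 4 genes.

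Read together, 8 of the 9 genes had libraries that did not overlap between the groups, with KO-labelled values above WT in 5 and below in 3, where 70.2% of all 17710 genes tested were also without overlap. At the thresholds of the study (fold change of at least 2, adjusted p under 0.001) *Bckdhb* was the 1 member called, against 4.51% of all genes in either direction (1.36% higher and 3.15% lower). Dropping the fold minimum and taking an adjusted p under 0.05, 3 were higher and 3 lower, against 16.4% and 15.8% of all genes. The median log2 fold change of the 9 was 0.08, beside 0.00 (0.00489) for all genes tested. Because the list was built on this contrast, nothing is read from these counts.

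Levels of the 9 genes were compared with each other as normalized counts per kilobase of annotated exon. In WT the order was *Bcat2* (2777 ± 86.7), *Dld* (2619 ± 29.3), *Bckdha* (1943 ± 34.4), *Bckdhb* (1402 ± 77.9), *Bckdk* (1277 ± 4.59), *Bcat1* (1155 ± 14.8), *Dbt* (576 ± 5.18), *Ivd* (419 ± 7.13) and *Ppm1k* (136 ± 6.94) (SD, n = 2). No neighbours in that order had overlapping libraries, but exonic length sums all annotated transcripts, which lowers the level of genes with long or rarely used exons. In the KO-labelled libraries *Bckdha* came first (3098 ± 123) and *Bckdhb* last (7.90 ± 3.73), below *Ppm1k* (136 ± 7.80). *Dbt* (702 ± 16.2) then stood above *Bcat1* (648 ± 15.9).

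The balance of subunits followed from these levels. Per kilobase, *Bckdhb* stood at 0.741 and 0.702 of *Bckdha* in WT, against 0.00350 and 0.00165 in KO-labelled cells. *Bckdha* itself went from 3.40 and 3.36 times *Dbt* to 4.22 and 4.61 times. *Dld* was 4.56 and 4.54 times *Dbt* in WT and 3.12 and 3.20 times in the KO-labelled libraries. All of these ratios are of RNA, and protein was not measured.

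**Figure D2:**
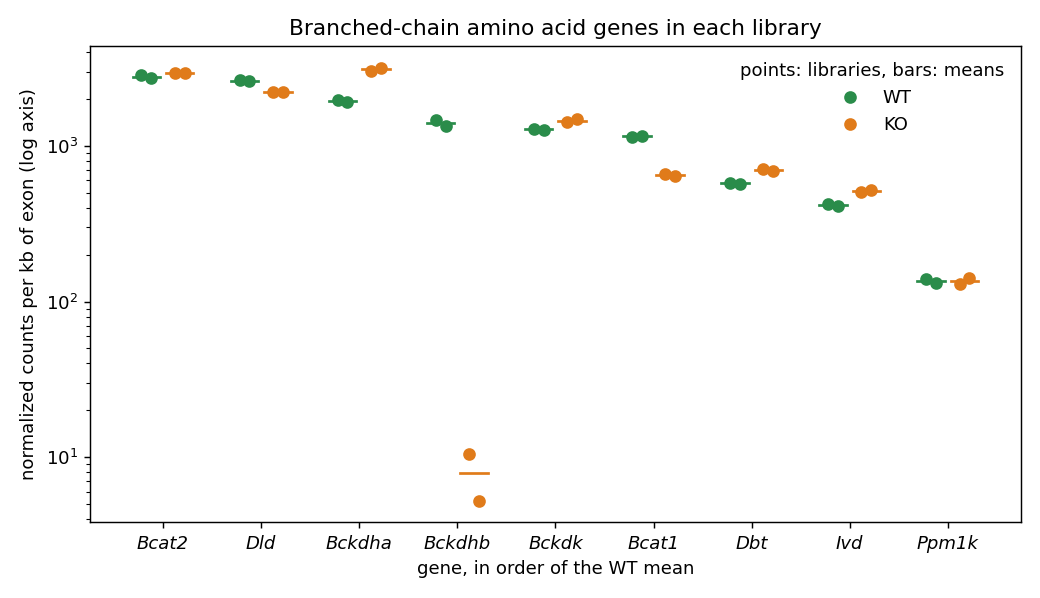
Normalized counts per kilobase of exon on a log axis for the 9 genes, in order of the WT mean. Points are libraries (2 WT in green, 2 KO-labelled in orange) and bars are group means. *Bckdhb* drops from 1347 and above in WT to 10.5 and 5.26, while the other genes stay within 2-fold of WT.

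Enzymes after the complex were then counted from a list of 17 genes that holds none of the 9. They carry the leucine branch (*Mccc1*, *Mccc2*, *Auh*), the isoleucine branch (*Acadsb*, *Echs1*, *Hsd17b10*, *Acat1*), the valine branch (*Acad8*, *Hibch*, *Hibadh*, *Aldh6a1*) and the propionyl-CoA steps on which isoleucine and valine converge (*Pcca*, *Pccb*, *Mcee*, *Mut*, *Mmaa*, *Mmab*). By DESeq2 at an adjusted p under 0.05, 1 of 17 was lower and 0 higher, with 16 not passing, against 15.8% lower and 16.4% higher over all genes tested. At an unadjusted p under 0.05 the counts were 2 lower and 1 higher, beside 3456 and 3564 of the 17710 genes tested. By edgeR at an adjusted p under 0.05 they were also 2 and 1, beside 3721 and 3346 genes of the whole table. No gene of the list reached the thresholds of the study in DESeq2 or edgeR. Their log2 fold changes ran from -0.37 to 0.30 with a median of 0.03. *Pcca*, the alpha chain of propionyl-CoA carboxylase, had 863 and 977 normalized counts in WT and 681 and 745 in the KO-labelled libraries (log2 fold change -0.37 ± 0.14 SE, DESeq2 adjusted p = 0.0259). That call was lost with the replicate number as a block. Without single libraries the log2 fold change of *Pcca* ran from -0.45 to -0.27.

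The sister complexes were listed next, since they share Dld and the same layout of decarboxylase, lipoate-bearing core and flavoprotein. Of 19 genes of the pyruvate, 2-oxoglutarate and 2-oxoadipate dehydrogenases, their kinases and phosphatases, lipoate handling and the lipoate-bearing protein of glycine cleavage (*Gcsh*), 6 were higher and 3 lower at a DESeq2 adjusted p under 0.05, against 16.4% and 15.8% of all genes, with a list median of 0.13. *Pdk4*, a kinase that turns pyruvate dehydrogenase off, fell from 256 and 318 normalized counts in WT to 100.1 and 132 and was the 1 gene past the thresholds of the study (log2 fold change -1.30 ± 0.26 SE, adjusted p = 6.79e-06). *Pdha1*, the alpha chain of the pyruvate decarboxylase and X-linked, fell from 19296 and 18618 to 10167 and 11037 (-0.84 ± 0.07 SE, adjusted p = 4.28e-30), and another gene shares 16.0% of its exonic bases on the other strand. *Dhtkd1*, a 2-oxoadipate dehydrogenase, rose from 749 and 773 to 1054 and 1156 (0.54 ± 0.13 SE, adjusted p = 0.000179). *Pdhx*, which binds Dld in the pyruvate complex, rose by 0.48 ± 0.09 (SE, adjusted p = 9.59e-07), and *Pdpr*, a regulator of its phosphatase, by 0.44 ± 0.12 (SE, adjusted p = 0.00162). Without single libraries *Pdpr* ran from 0.33 to 0.55 and *Dhtkd1* from 0.47 to 0.61. *Dlst*, *Ogdh* and *Dlat* also passed, but *Ogdh* and *Dlat* were lost with the replicate number as a block and relative to chromosome medians. Without single libraries *Dlat* ran from 0.18 to 0.25, *Ogdh* from 0.23 to 0.28 and *Dlst* from -0.36 to -0.20. Relative to the median of chromosome 12 *Dlst* turned from -0.28 to 0.035, so no direction is given for it. It is among the 3 counted lower, and relative to chromosome medians 2 of the list were.

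Another alpha and beta pair can be set beside the branched-chain decarboxylase. *Pdhb*, the beta chain of the pyruvate decarboxylase and named after its values were seen, had 9588 and 9242 normalized counts in WT and 11029 and 11582 in the KO-labelled libraries (log2 fold change 0.26 ± 0.07 SE, DESeq2 adjusted p = 0.000955). Without single libraries *Pdhb* ran from 0.23 to 0.31, and near-identical copies cover 76.4% of its exonic bases, which leaves its counts uncertain. The lower chain of the pyruvate pair was the alpha chain *Pdha1*, with a KO-labelled mean at 55.9% of WT. In the branched-chain pair it was *Bckdhb*, chosen for its loss, at 0.564%. No test of that contrast was made.

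RNA of 8 transporter genes was read next, and uptake of amino acids was not measured. Here 5 were higher and 1 lower at a DESeq2 adjusted p under 0.05, against 16.4% and 15.8% of all genes, with a list median of 0.34. None was past the thresholds of the study in DESeq2 or edgeR. *Slc43a1*, a carrier of large neutral amino acids, rose from 762 and 862 normalized counts to 1459 and 1407 (log2 fold change 0.82 ± 0.12 SE, DESeq2 adjusted p = 3.98e-10). Its relative *Slc43a2* fell from 1286 and 1306 to 885 and 895 (-0.54 ± 0.12 SE, adjusted p = 2.73e-05). *Slc7a6*, which exchanges cationic and neutral amino acids, rose by 0.63 ± 0.08 (SE, adjusted p = 1.49e-12). *Slc25a44*, the mitochondrial carrier that brings branched-chain amino acids to Bcat2 and the complex, rose from 1191 and 1260 to 1694 and 1778 (0.50 ± 0.11 SE, adjusted p = 2.46e-05). *Slc7a5*, the main leucine importer of many dividing cells, had 4679 and 6392 against 6983 and 6289, with overlapping groups, and was not called (0.26 ± 0.23 SE, adjusted p = 0.448). *Slc7a5* and *Slc3a2*, named after their values were seen, encode a light and heavy chain pair. *Slc3a2* was higher by 0.27 ± 0.08 (SE, adjusted p = 0.00367) but stood at -0.11 relative to the median of its chromosome, so no direction is given for it. It is among the 5 counted higher, and relative to chromosome medians 4 transporters were. Without single libraries *Slc3a2* ran from 0.17 to 0.39.

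**Figure D3:**
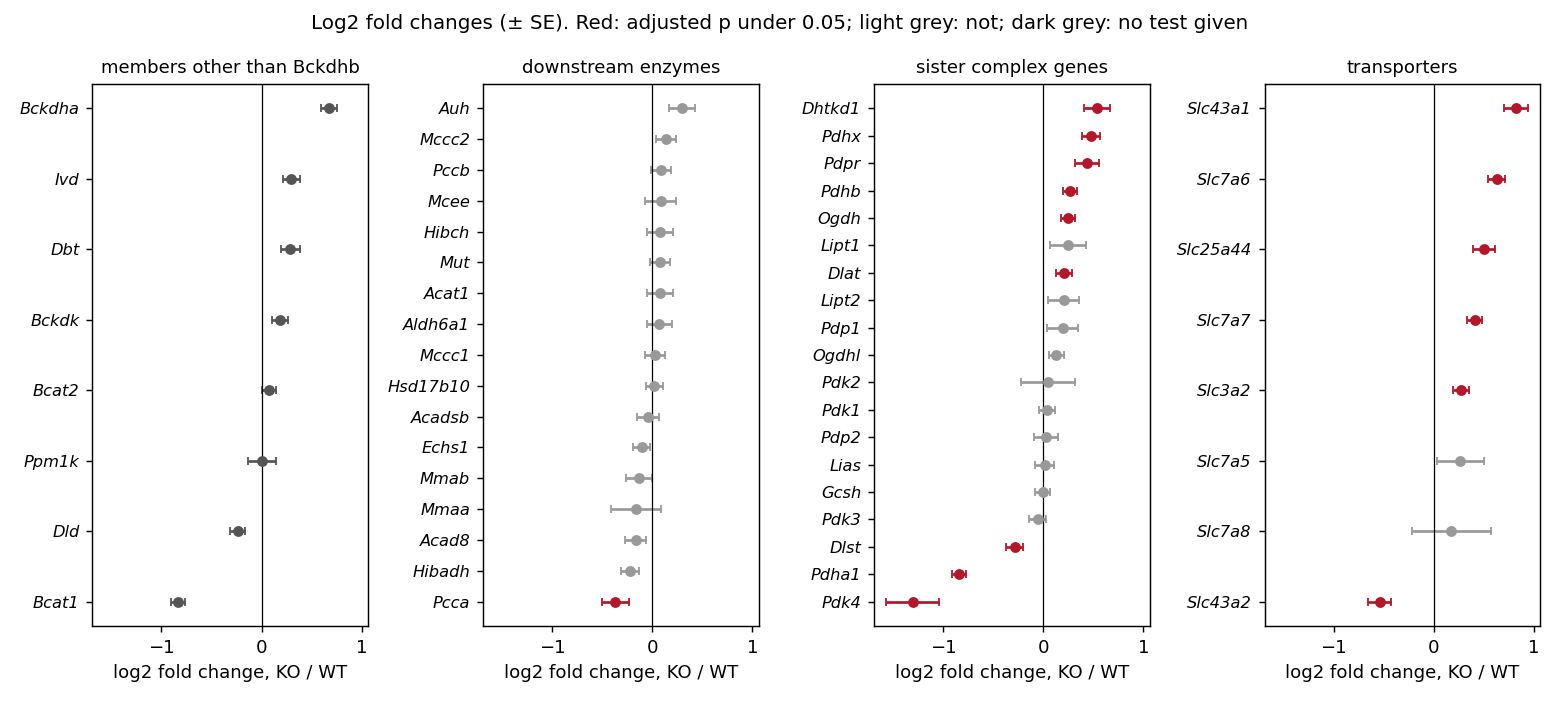
Log2 fold changes of KO-labelled over WT libraries with SE bars for the 8 branched-chain genes other than *Bckdhb* and for the 3 wider lists. Red points passed a DESeq2 adjusted p under 0.05, light grey ones did not, and dark grey ones carry no test. Red points number 1 of 17 after the complex, 9 of 19 in the sister complexes and 6 of 8 transporters, where 32.3% of all genes tested passed. Differences between the lists were not tested, and *Dlst* and *Slc3a2* change sign relative to the medians of their chromosomes.

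The neighbours of *Bckdhb* on chromosome 9 were compared by position. Within 1 Mb on either side 14 other genes are annotated, 6 of which had enough counts to be tested, all upstream of *Bckdhb*. *Ttk*, a mitotic kinase gene that ends 52.8 kb before *Bckdhb* starts, had 4187 and 3601 normalized counts in WT and 4246 and 3747 in the KO-labelled libraries, a log2 fold change of 0.04 ± 0.10 (SE, DESeq2 adjusted p = 0.827). *Elovl4*, a fatty acid elongase gene 118.8 kb upstream, was higher (305 and 303 against 441 and 427, 0.52 ± 0.18 SE, adjusted p = 0.0186). *Sh3bgrl2*, 286 kb upstream, was lower (2911 and 2746 against 2179 and 2496, -0.27 ± 0.10 SE, adjusted p = 0.0199). *Lca5*, *Hmgn3* and *Phip*, at 484, 778 and 949.7 kb, had log2 fold changes of -0.27, -0.02 and 0.09, with adjusted p of 0.283, 0.973 and 0.876. Thus 2 of 6 neighbours passed an adjusted p under 0.05, beside 32.3% of all genes tested, and none reached the thresholds of the study in DESeq2 or edgeR. Those 2 calls were lost with the replicate number as a block. Without single libraries *Elovl4* ran from 0.50 to 0.54 and *Sh3bgrl2* from -0.37 to -0.17.

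Downstream of *Bckdhb* no gene within 1 Mb could be tested: 2 *U1* genes had no count and *Gm8226* had 2 and 1 counts in single libraries. The next gene tested, *Fam46a*, named after its values were seen, starts 1196 kb after *Bckdhb* ends. It was low, with 18.6 and 45.7 normalized counts in WT and 15.7 and 6.26 in the KO-labelled libraries, a log2 fold change of -1.57 ± 0.81 (SE) that DESeq2 did not call (adjusted p = 0.129; edgeR 0.038). Whether the genome of the clone differs at this locus cannot be read from gene-level counts.

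**Figure D4:**
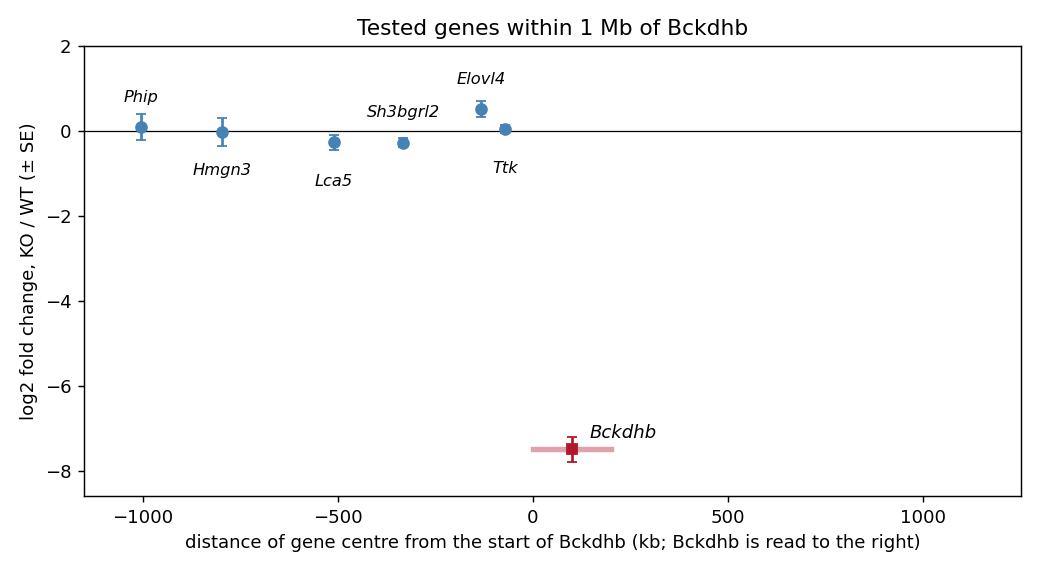
Log2 fold change of KO-labelled over WT libraries (± SE) for the tested genes within 1 Mb, against the distance of the gene centre from the start of *Bckdhb* in kb. *Bckdhb* (square, with a bar for its length) is at -7.49, and the 6 upstream genes lie between -0.27 and 0.52.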

How the data were processed

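RNA was sequenced from 2 WT and 2 KO-labelled mESC libraries. Per the study's methods and processing notes, libraries were stranded and depleted of ribosomal RNA, and paired 75-base reads were mapped to mm9 with STAR. Assignment by the authors used featureCounts and the GENCODE vM1 annotation, which left raw counts for each gene in the deposited table. Tool versions, the strand setting and the treatment of multiply mapped reads are not given in the sources used here. CPM divides a count by the library total.

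Groups and replicate numbers came from the sample labels. All 37310 genes were fitted with DESeq2 1.42.0 in R 4.3.3 (group alone, default size factors, Benjamini-Hochberg adjustment over the 17710 genes that passed independent filtering). Normalized counts are counts divided by size factors. Positive log2 fold changes are higher in KO-labelled libraries. Libraries of a group differed by more than sampling noise (chi-square per degree of freedom 36.9 in WT and 14.3 in KO-labelled). The fit was tested on simulated counts. Alternatives were TMM and upper-quartile factors, a filter on low counts (10 counts in 2 libraries), edgeR 4.0.16, the replicate number as a block, chromosome medians removed (genes with a mean of at least 50), other thresholds and leaving out each library. Copies were sought with blastn 2.17.0 on NCBIM37, whose annotation matched every gene identifier.

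The 9 genes, the wider lists and the markers were chosen with earlier results of these data known. From the list of genes after the complex, 1 gene is not reported here and was left out of its counts. Genes named are the 9, every gene of a wider list past the study's thresholds, up to 4 more of each list with the largest change at an adjusted p under 0.05, neighbours with a mean of at least 10, *Spen*, and the 5 genes nearest to *Bckdhb* (WT mean of at least 100). Other genes given with values, *Dlst* among them, were named after their values were seen.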

Additional observations from a re-analysis of the deposited data

How the results depend on the processing

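*Bckdhb* stayed between -8.05 and -7.05 on the log2 scale under all alternatives, and these ends came from leaving out single libraries. Of 80 values of the other 8 members, 10 moved by more than the spread between replicates, among *Bckdha*, *Dbt*, *Dld*, *Bckdk*, *Bcat1*, *Bcat2* and *Ivd*. The 8 with the other sign were all of *Dld*, *Bcat2* or *Ppm1k*. Relative to chromosome medians *Bckdk* went from 0.19 to 0.09, *Dbt* from 0.29 to 0.19 and *Ivd* from 0.30 to 0.19. *Bckdha* went from 0.67 to 0.58 and *Bcat1* from -0.83 to -0.89. At an adjusted p under 0.05 with the fold minimum also dropped, 6 members passed, beside 32.3% of all genes, in place of 1 at the study's thresholds, beside 4.51%.

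Genes after the complex counted higher were 1 with upper-quartile factors, by edgeR and relative to chromosome medians, in place of 0. Those counted lower were 2 with TMM factors, with the filter on low counts and by edgeR, in place of 1. They were 3 relative to chromosome medians, 0 with the replicate block and 0 at the study's thresholds. Sister complex genes were 4 higher and 3 lower with the replicate block and 5 and 2 relative to chromosome medians, in place of 6 and 3. At the study's thresholds they were 0 and 1. Transporters were 4 higher and 1 lower relative to chromosome medians, in place of 5 and 1, and 0 and 0 at the study's thresholds. Neighbours of *Bckdhb* passing were 1 with upper-quartile factors and relative to chromosome medians, in place of 2. They were 0 with the replicate block and 0 at the study's thresholds. The study's thresholds are stricter by construction. A library left alone in its group was assumed to vary like the other group, so only fold changes are given for fits without a library. For the other shifts the cause was not tested, and apart from edgeR the number of all genes called there is not given. Relative to chromosome medians *Dlst* went from -0.28 to 0.035 and *Slc3a2* from 0.27 to -0.11. Deviations of same-numbered libraries correlated at -0.018 over 13306 genes. With 2 libraries in each group this is a single pairing, which cannot tell whether same-numbered libraries were handled together.

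Depth limits *Bckdhb* in the KO-labelled libraries, at 18 and 10 counts. Intervals from counts would cover counting error only.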
